A study of Mus musculus with 12 samples.

Results

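Lyz2, Mpo, Ctss, Cd68, Mpeg1, Csf1r, Itgam, Fcer1g, Tyrobp and Wfdc17 are transcripts commonly used to recognise macrophages, monocytes and granulocytes, and they were read library by library in mouse B cell cultures, where they are taken as a measure of cells other than B cells. These 10 genes were taken by symbol from a table of 23973 genes for marrow cultures and one of 24015 genes for spleen cultures, and were selected on measured levels, since earlier results on myeloid markers in these libraries were known. Their values are therefore descriptions, and their tests, taken from fits across all genes, are no independent evidence. The study compared wild-type (WT) mice with T58A mice, littermates that carry a point mutation in MYC, the transcription factor that drives growth and division. T58A changes a phosphorylation site known to control how fast MYC is degraded. Immature B cells of bone marrow were cultured for 48 h in IL7, a cytokine on which B cell precursors depend, and mature B cells of the spleen for 48 h in lipopolysaccharide (LPS), which drives them towards antibody-secreting plasmablasts. Each of the 4 groups (IL7 WT, IL7 T58A, LPS WT and LPS T58A) held 3 libraries of RNA sequencing. All groups were grown in RPMI with fetal bovine serum, and the titles place each T58A library in a pair with a WT library. The labels give neither the age of the mice nor whether the mutation was on 1 or both alleles, and they name no purity check of the cultures. Culture and tissue changed together, so an effect of IL7 or LPS cannot be told apart from one of marrow or spleen.

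Myeloid cells store enzymes in granules and lysosomes and sense their surroundings through receptors that signal by way of small membrane adaptors. Lyz2 encodes lysozyme, Mpo the peroxidase of the granules of promyelocytes and neutrophils, and Ctss cathepsin S, the lysosomal protease that trims the invariant chain of MHC class II molecules. Cd68 is a lysosomal membrane glycoprotein, and Mpeg1 a pore-forming protein of phagosomes. Csf1r is the receptor for the macrophage growth factor CSF1, and Itgam encodes CD11b, the alpha chain of the integrin Mac-1. Fcer1g and Tyrobp (DAP12) are adaptors whose ITAM motifs recruit the kinase Syk. Wfdc17 is a small secreted protein of the whey acidic protein family that activated macrophages make. In GENCODE M21 on GRCm38, Ctss spans chr3:95526786-95556403, Mpeg1 chr19:12460779-12465283, Wfdc17 chr11:83703991-83706268 and Mpo chr11:87793581-87804413, all on the plus strand, and Lyz2 chr10:117277331-117282321 on the minus strand. Of the 50-base stretches of Lyz2, 15.4% are shared with its neighbour and near copy Lyz1, which had 1 read in the 12 libraries. Some of these genes are known to be expressed outside the myeloid lineage, among them Ctss, which B cells also use when they present antigen on MHC class II.

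Promoter windows, from 250 bases before to 50 after the RefSeq start on GRCm38.p6, were at hand for 8 of the 10 genes. The purine-rich core GAGGAA is bound by PU.1, the factor encoded by Spi1, and it lay on either strand in 5 of these 8 windows (62.5%), against 28.3% of 27025 promoters of the same length. The C/EBP motif TTNCNNAA also lay in 5 of the 8, against 40.7% of all promoters. The E-box CACGTG, which MYC binds with MAX, lay in 0 of the 8, against 7.24% of all. The motifs were searched on both strands, matches of GAGGAA and TTNCNNAA shared letters in 1 of the 8 windows, and a match describes letters only. Of the sequences below, the first 3 belong to the genes that separated the genotypes in the IL7 cultures in every library, and the fourth to the granule gene that stood out in 1 library instead. They read 5′ to 3′ on the strand of the gene, with GAGGAA or its reverse complement in capitals. All 4 lie on the plus strand, Ctss at chr3:95526536-95526835, Wfdc17 at chr11:83703806-83704105, Mpeg1 at chr19:12460520-12460819 and Mpo at chr11:87793534-87793833. The Ctss and Mpo windows hold 2 cores each, that of Wfdc17 holds 1 and that of Mpeg1 holds 0.
Ctss: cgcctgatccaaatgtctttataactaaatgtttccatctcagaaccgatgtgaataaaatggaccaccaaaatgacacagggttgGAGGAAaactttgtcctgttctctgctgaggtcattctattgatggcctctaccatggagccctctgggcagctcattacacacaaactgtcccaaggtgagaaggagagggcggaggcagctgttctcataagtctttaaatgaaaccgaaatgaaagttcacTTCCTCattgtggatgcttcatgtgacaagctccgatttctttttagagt
Wfdc17: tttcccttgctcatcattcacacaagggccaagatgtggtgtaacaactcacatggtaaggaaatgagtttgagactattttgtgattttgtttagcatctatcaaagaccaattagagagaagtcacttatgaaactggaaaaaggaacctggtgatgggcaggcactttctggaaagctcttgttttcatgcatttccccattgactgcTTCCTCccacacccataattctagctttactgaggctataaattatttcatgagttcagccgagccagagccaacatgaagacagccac
Mpeg1: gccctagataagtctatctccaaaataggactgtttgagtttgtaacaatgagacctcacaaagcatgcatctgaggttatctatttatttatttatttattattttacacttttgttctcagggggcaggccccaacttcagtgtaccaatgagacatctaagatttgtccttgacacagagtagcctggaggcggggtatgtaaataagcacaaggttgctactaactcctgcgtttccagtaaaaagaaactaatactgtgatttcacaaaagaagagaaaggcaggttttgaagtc
Mpo: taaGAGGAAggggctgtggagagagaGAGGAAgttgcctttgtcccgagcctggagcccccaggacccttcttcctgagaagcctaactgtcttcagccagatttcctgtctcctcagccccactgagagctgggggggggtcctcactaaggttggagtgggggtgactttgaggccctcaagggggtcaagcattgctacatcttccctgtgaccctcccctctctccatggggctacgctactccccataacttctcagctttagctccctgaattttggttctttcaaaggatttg

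Between 8486753 and 10201113 reads per IL7 library and between 5110746 and 9332410 per LPS library were assigned to genes. Levels are normalised reads, that is reads divided by 1 size factor per library, so that 3 reads, which a count of 0 cannot exclude, equal 2.15 to 4.12 normalised reads (counting error only). The 10 defining B cell genes were present in every library, the lowest value being 718 normalised reads for Pax5 in the LPS and 886 for Ms4a1 in the IL7 cultures. In the LPS table the header of the second T58A replicate stands over 2 columns, called the first and the second unnumbered library below. IL7 WT 2 stood apart from the other libraries. It held 23674 normalised reads of Xist together with 31.7 of the Y-linked Kdm5d, and 611 of Igj, the joining chain of secreted antibody, against 89.1 and 105 in WT 1 and 3. WT 1 and WT 2 expressed Xist in both cultures, and WT 3 and all T58A libraries expressed Y-linked genes, so pair 3 was the only pair of 1 sex, and sex and genotype cannot be told apart in pairs 1 and 2.

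In the IL7 cultures all 10 genes had a lower mean in T58A than in WT, with a median log2 difference of -0.68 against -0.01 over 11604 tested genes. None of the 10 passed an adjusted p of 0.05 in limma without the pair, nor did any other gene (0%), although 1960 genes had an unadjusted p under 0.05. With the pair fitted as a block, limma called 12.7% of all tested genes, with 6.31% of all tested genes lower in T58A, and 3 of the 10 genes fell: Ctss, Mpeg1 and Wfdc17. These 3 were also the ones whose T58A values all lay below the WT values, a pattern shown by 10.8% of all tested genes. In bulk RNA fewer cells of a type and less RNA per cell cannot be told apart. None of the 10 lay above WT without overlap, against 12.9% of all genes, and for the remaining 7 the groups overlapped.

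Ctss was the most abundant of the 10 per length of transcript, at 67.1 RPKM (reads scaled by exon length in kilobases and by depth) over the 6 IL7 libraries (SD 22.1). It stood at 1349.5, 905 and 858 normalised reads in IL7 WT 1, 2 and 3, and at 749, 672 and 573 in T58A 1, 2 and 3. Every T58A library lay below every WT library. The WT mean was 1037 ± 271 and the T58A mean 664 ± 88.3 (SD, n = 3 each), a log2 difference of -0.62 ± 0.18 (SE). In limma the adjusted p was 0.191 without the pair and 0.00723 with it, and the log2 difference within pairs 1, 2 and 3 was -0.85, -0.43 and -0.58. In the authors' deposited table Ctss had a log2 fold change of -0.56 with an adjusted p of 4.70e-05.

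Mpeg1 had a larger fold. It stood at 161, 212 and 201 normalised reads in IL7 WT 1, 2 and 3 and at 74.2, 123 and 68.5 in T58A 1, 2 and 3. The groups did not overlap, and T58A 2 was the nearest to WT. The means were 191 ± 27.2 and 88.6 ± 29.9 (SD, n = 3), with a log2 difference of -1.14 ± 0.24 and an adjusted p of 0.152 in limma without the pair and 0.00723 with it. DESeq2 without the pair called Ctss (adjusted p = 0.0347) and Mpeg1 (0.00444), where it called 2.67% of all tested genes and 1.24% of all tested genes as lower, and the authors' deposited table gives Mpeg1 an adjusted p of 0.000473.

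Wfdc17 showed the largest fold of the 10 in the group means and in limma, at the lowest read numbers. It stood at 10.2, 12.7 and 13.2 normalised reads in IL7 WT 1, 2 and 3 and at 1.08, 2.07 and 2.85 in T58A 1, 2 and 3. All T58A values were at or under the level of 3 reads and all WT values above it. In reads the groups held 37 and 6, a ratio of 5.99 between their read shares (95% exact interval 2.51 to 17.4, counting error only). The log2 difference on the scale of normalised reads plus 1 was -2.16 ± 0.47, with an adjusted p of 0.161 in limma without the pair and 0.0334 with it. With a pseudocount of 5 in place of 1 the log2 difference was -1.29 (adjusted p = 0.167 without the pair), so its size depends on the pseudocount. Without pair 2 the adjusted p with the block was 0.0906, and without pair 3 it was 0.0807. DESeq2 gave a log2 difference of -2.58 without the block and -2.64 with it, with no adjusted p in either. The authors' deposited log2 fold change was -0.25 for Wfdc17, with no adjusted p, against -0.76 for Mpeg1.

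**Figure D1:**
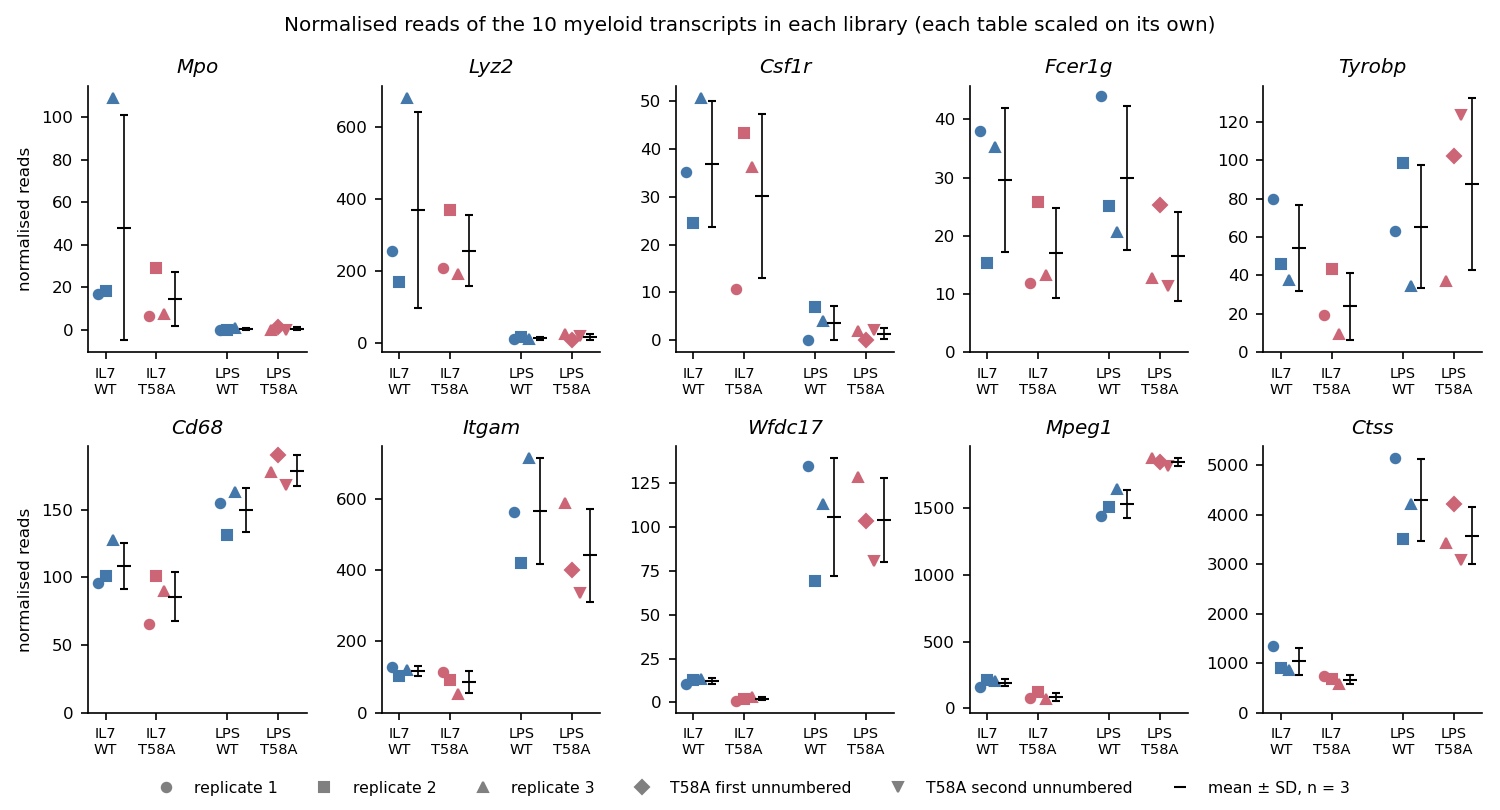
Normalised reads of each of the 10 genes by library, WT and T58A, in the IL7 and the LPS cultures, 1 point per library. In the IL7 cultures the T58A points of Ctss, Mpeg1 and Wfdc17 lie below the WT points, while Lyz2 and Mpo peak in WT 3 at 680 and 109.

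Lyz2 and Mpo, the granule genes, overlapped between the genotypes and peaked in the same library. Lyz2 stood at 256, 170 and 680 normalised reads in IL7 WT 1, 2 and 3 and at 208, 369 and 191 in T58A 1, 2 and 3. WT 3 was the highest library, T58A 2 came next, and the groups overlapped. The log2 difference of -0.34 ± 0.47 (adjusted p = 0.734) became 0.23 without WT 3. Mpo stood at 16.7, 18.1 and 109 normalised reads in WT 1, 2 and 3 and at 6.46, 28.9 and 7.61 in T58A 1, 2 and 3. Here too WT 3 was highest and T58A 2 second, with a log2 difference of -1.43 ± 0.79 (adjusted p = 0.386) that was -0.57 without WT 3. Reads of Mpo cannot be told apart from those of the antisense model Gm11505 where the 2 overlap, as the strand setting of the counting is not given in the sources used here.

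Csf1r, the macrophage growth factor receptor, stood at 35.3, 24.5 and 50.6 normalised reads in IL7 WT 1, 2 and 3 and at 10.8, 43.4 and 36.1 in T58A 1, 2 and 3. The highest library was again WT 3 and the next T58A 2, and the groups overlapped (log2 difference -0.43 ± 0.52, adjusted p = 0.689, and 0.16 without T58A 1). It overlaps Hmgxb3 on the other strand, with 14.3% of its 50-base stretches also found in that gene. Itgam stood at 129, 102 and 120 in WT 1, 2 and 3 and at 115, 90.9 and 52.3 in T58A 1, 2 and 3, with only T58A 3 far from the rest (-0.50 ± 0.28, adjusted p = 0.388). As 66.3% of the 50-base stretches of Itgam also belong to the overlapping gene model Gm49368, its level depends on how such reads were counted.

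The adaptors Tyrobp and Fcer1g were lower in T58A 1 and T58A 3 than in their WT partners, while in pair 2 Tyrobp was nearly level and Fcer1g higher in T58A. Tyrobp stood at 79.8, 46.2 and 37.4 normalised reads in IL7 WT 1, 2 and 3 and at 19.4, 43.4 and 9.51 in T58A 1, 2 and 3. Only T58A 2 reached into the WT range. The log2 difference was -1.32 ± 0.52, with an adjusted p of 0.270 without the pair and 0.0553 with it. Fcer1g stood at 38.1, 15.4 and 35.2 in WT 1, 2 and 3 and at 11.8, 25.8 and 13.3 in T58A 1, 2 and 3, so that WT 2 lay among the T58A libraries (-0.74 ± 0.45, adjusted p = 0.414). Cd68 stood at 95.6, 101.4 and 128 in WT 1, 2 and 3 and 65.6, 101.3 and 90.4 in T58A 1, 2 and 3 (-0.34 ± 0.22, adjusted p = 0.436).

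Within pair 2, which holds the WT library that stood apart, 4 genes had the opposite sign from pairs 1 and 3. The log2 difference within pairs 1, 2 and 3 was -0.30, 1.11 and -1.83 for Lyz2, -1.25, 0.65 and -3.68 for Mpo, and -1.63, 0.80 and -0.48 for Csf1r. It was -1.61, 0.71 and -1.34 for Fcer1g and -1.99, -0.09 and -1.87 for Tyrobp. In contrast Mpeg1 was lower within every pair (-1.10, -0.78 and -1.54), as were Wfdc17 (-2.43, -2.16 and -1.88) and Ctss. With pair 2 left out and the block kept, limma called 6.68% of all tested genes, with 3.71% of all tested genes lower in T58A, and 6 of the 10 fell. These were Ctss (adjusted p = 0.00949), Mpeg1 (0.00985), Tyrobp (0.0139), Mpo (0.0337), Fcer1g (0.0493) and Lyz2 (0.0493). With pair 3 left out instead, 7.21% of all tested genes passed (4.24% of all tested genes as lower), Ctss and Mpeg1 fell (adjusted p = 0.0181 and 0.0199), and Lyz2 had a log2 difference of 0.40. Pair 3 was the only pair of male libraries.

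**Figure D2:**
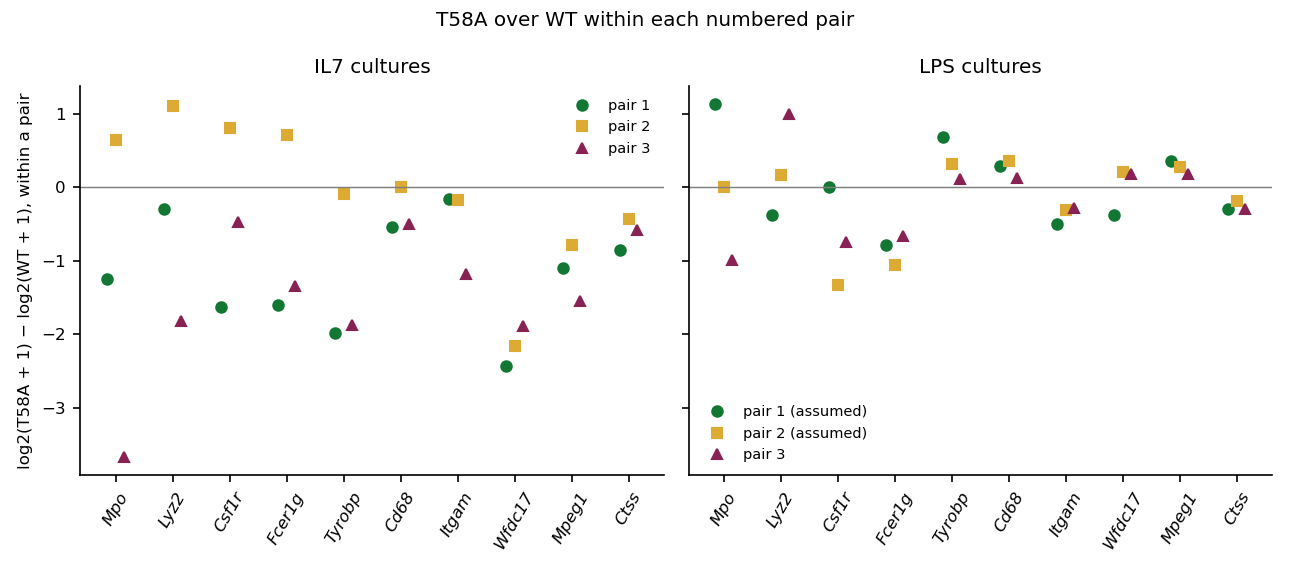
Log2 difference of T58A minus WT within each pair for the 10 genes, in the IL7 cultures and in the LPS cultures with the first unnumbered library placed with WT 1 and the second with WT 2. In the IL7 cultures Ctss, Mpeg1 and Wfdc17 lie below 0 in all 3 pairs, whereas Lyz2 runs from -1.83 to 1.11.

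The 10 genes therefore did not order the IL7 libraries in 1 way. Lyz2 and Ctss put 7 of the 15 pairs of libraries in opposite orders, as did Lyz2 and Wfdc17, whereas Mpo and Cd68 disagreed in 1, Lyz2 and Csf1r in 3, and Ctss and Itgam in 2. The order of Wfdc17 within a genotype rests on few reads, 11 to 14 a library in WT and 1 to 3 in T58A. Lyz2 disagreed with the granulocyte gene Camp in 2 and with S100a9 in 3, and with the B cell antigen receptor chain Cd79b in 8. Mpo, the other granule gene, disagreed with Camp in 4, with S100a9 in 5 and with Cd79b in 8. Ctss disagreed with Cd79b in 1 and with Cybb, the catalytic subunit of the phagocyte oxidase, in 2. With S100a9 Ctss disagreed in 4, fewer than Mpo did, and with Camp in 7. These orders are descriptions over 6 libraries that share their depth and genotype labels, and the genes other than the 10 were chosen after their values were seen.

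The summed level of the 10 genes in the IL7 cultures was 234, 174 and 239 RPM (reads scaled by the library's assigned reads alone) in WT 1, 2 and 3 and 135, 159 and 109 in T58A 1, 2 and 3. All T58A sums lay below all WT sums. The means were 216 ± 36.2 and 135 ± 25.2 (SD, n = 3), a log2 ratio of -0.68. Ctss alone supplied 38.4% to 62.2% of these reads. Without it the sum was lower in pairs 1 and 3 and higher in pair 2 (log2 ratios -0.69, -1.58 and 0.21), and the groups overlapped. The sum of Lyz2, Mpo and Csf1r was 33.2, 23.0 and 89.9 RPM in WT 1, 2 and 3 and 24.1, 46.9 and 24.5 in T58A 1, 2 and 3, led by WT 3. The exact 95% intervals of that last sum, which cover counting error only, were 83.6 to 96.5 in WT 3 and 20.2 to 26.2 in WT 2.

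Lists of genes of other cell types were read beside the 10. Of 21 granulocyte and promyelocyte genes, 11 were tested in the IL7 cultures. All 11 had a negative log2 difference (median -1.22), and 0 passed with or without the block. S100a9, a subunit of the neutrophil protein calprotectin, stood at 337, 114 and 500 normalised reads in WT 1, 2 and 3 and at 172, 149 and 27.6 in T58A 1, 2 and 3. Its order put WT 3 at the top, as for Lyz2 and Mpo. Without pair 2, 13 granulocyte genes were tested with the block and 6 fell (Ngp, S100a9, Lcn2, S100a8, Ltf and Chil3), against 3.71% of all tested genes. The summed granulocyte level was 66.0 to 212 RPM in WT and 37.6 to 92.5 in T58A, and its median log2 difference within pairs 1, 2 and 3 was -0.76, 0.38 and -3.31.

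Of 32 monocyte and macrophage genes, 16 were tested and 3 fell with the block: Cybb, the GM-CSF receptor chain Csf2ra and the lysosomal protease Lgmn. None passed without the block. Cybb stood at 1225, 706 and 423 normalised reads in IL7 WT 1, 2 and 3 and at 500, 272 and 294 in T58A 1, 2 and 3 (log2 difference -1.06, adjusted p = 0.00671 with the pair and 0.233 without). T58A lay below WT within each pair, though T58A 1 exceeded WT 3. The summed level ran from 580 to 812 RPM in WT and from 477 to 538 in T58A. Without pair 2, 5 of the 16 fell with the block (Lgals3, Cybb, Csf2ra, Clec7a and Lgmn), against 3.71% of all tested genes, and all 16 had a negative log2 difference. C1qa, a complement gene of tissue macrophages named after its values were seen, had at most 5 reads in any IL7 library. Other genes of the list, also picked after their values were seen, had more. Emr1 had 6 to 39 reads a library, Clec7a 14 to 50 and Lgals3 93 to 296.

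B cell genes fell in the same fit. Of the 10 defining B cell genes 6 fell with the block, namely Ms4a1 (CD20), Blnk, Cd79b, Cd79a, Cd72 and Cd22, and 3 of 10 marrow precursor genes fell, the recombinase genes Rag1 and Rag2 and the surrogate light chain gene Vpreb3. None of these passed without the block. Cd79b stood at 14012, 8740 and 6610 normalised reads in IL7 WT 1, 2 and 3 and at 7804, 6530 and 5296 in T58A 1, 2 and 3. WT 1 was the highest library, as for Ctss and Cybb, and T58A 1 lay above WT 3. The summed B cell level was 5207 to 8112 RPM in WT and 4456 to 5550 in T58A. The part that B cell, granulocyte or monocyte transcripts had in the lower Ctss, Mpeg1 and Wfdc17 was not tested.

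**Figure D3:**
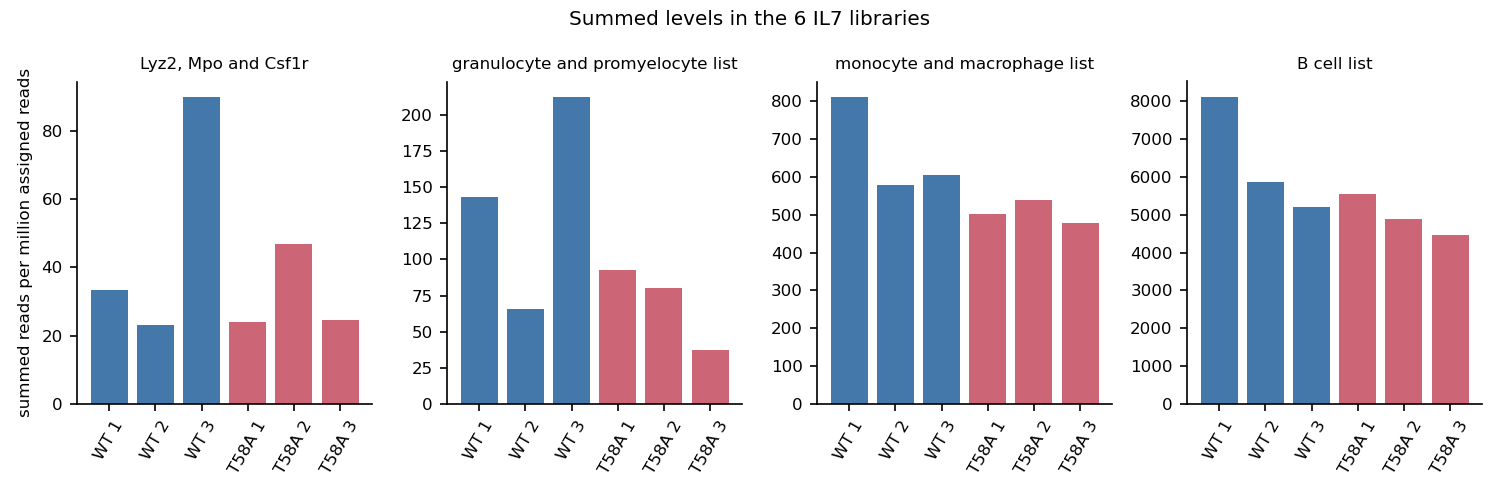
Summed RPM of cell type lists in each IL7 library, WT and T58A. The granulocyte sum spans 66.0 to 212 in WT and 37.6 to 92.5 in T58A, and the B cell sum 5207 to 8112 and 4456 to 5550.

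Among 23 genes of myeloid growth factor receptors and ITAM signalling, 16 were tested. With the block the integrin beta chain Itgb2 and the kinases Syk and Lyn fell, and none of these 3 passed with pair 2 left out. Of 14 dendritic cell genes the chemokine receptor Ccr7 fell, of 6 tested. Of the 16 T and NK cell genes, 4 were tested, where Cd2 and Il2rb fell and Thy1 rose. Among 9 mature B cell and plasmablast genes Cd83, Cd86 and Igj fell and Sdc1 (CD138) rose, and Igj was high in WT 2 alone. Of 15 erythroid and megakaryocyte genes 2 were tested and Itga2b fell, while the globin genes Hbb-b1, Hbb-b2, Hba-a1 and Hba-a2 and Car1 were listed at 0 in all IL7 libraries. No mast cell or stromal gene passed (1 tested in each list).

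In the LPS cultures the same transcripts gave another picture. Scaled by exon length and depth, 3 of the 10 were lower than in the IL7 cultures, 5 were higher, and 2 overlapped. The tables were normalised separately, so these levels are set side by side with no test. Lyz2 averaged 25.4 RPKM in the IL7 and 1.64 in the LPS libraries, 15.5-fold apart, and every IL7 library lay above every LPS library. Mpo had 179 reads in the 6 IL7 libraries and 2 in the 6 LPS libraries, a ratio of 66.3 between read shares with an exact interval from 18.1 to 552 (counting error only, here and for the next ratio). IL7 WT 3 alone held 99 of the 179 reads, and without it the ratio was 34.9 (9.34 to 293). Csf1r had 201 and 17 reads, a ratio of 8.76 (5.34 to 15.3). These granule genes and the macrophage growth factor receptor were the members with the fewest reads in the spleen cultures.

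Wfdc17, Mpeg1, Itgam, Ctss and Cd68 were higher in every LPS library than in any IL7 library. Mean levels in IL7 and LPS were 1.41 and 28.7 RPKM for Wfdc17 (20.3-fold), 3.46 and 57.1 for Mpeg1 (16.5-fold) and 2.17 and 14.7 for Itgam (6.77-fold). Ctss averaged 423 RPKM in the LPS libraries, 6.30 times its IL7 level, and Cd68 averaged 19.2 against 8.25. Fcer1g (3.87 against 2.85) and Tyrobp (16.9 against 6.32) overlapped between the cultures. Of the 21 granulocyte genes 17 had at most 3 reads in each LPS library, and Elane, Cxcr2, Retnlg, Chil3 and Fcnb had 0 in all. Fcgr1 and Lyz1, of the monocyte list, were likewise at 0. Read as a measure of cells other than B cells, the 10 genes did not behave as 1 quantity: Lyz2, Mpo and Csf1r were lowest in the cultures where Ctss, Cd68, Mpeg1, Itgam and Wfdc17 were highest.

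**Figure D4:**
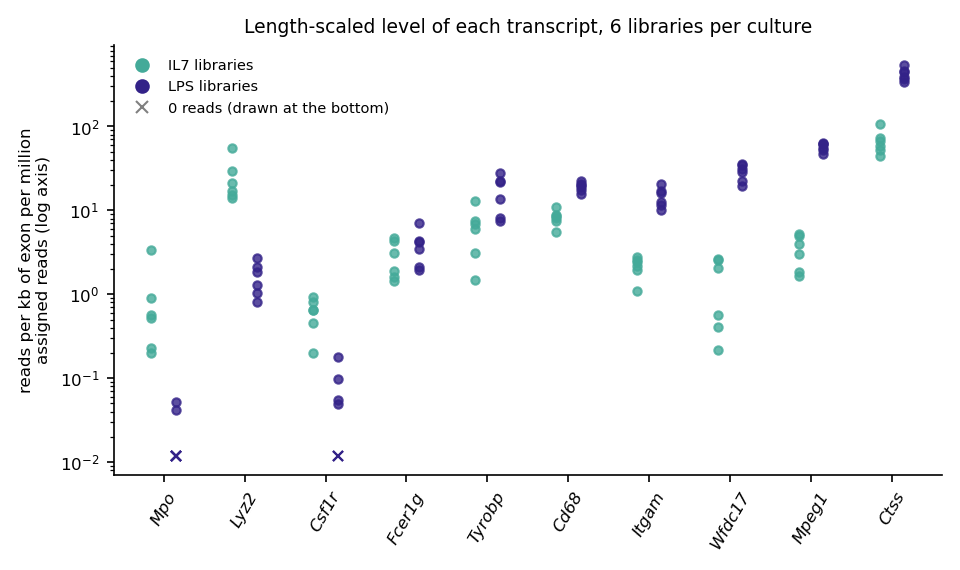
RPKM of the 10 genes in the 6 IL7 and 6 LPS libraries on a log axis, 1 point per library. Lyz2, Mpo and Csf1r lie higher in the IL7 libraries, and Ctss, Cd68, Mpeg1, Itgam and Wfdc17 in the LPS libraries.

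Between the genotypes no gene passed in the LPS cultures in limma without a block (0% of 11291 tested, 284 at an unadjusted p under 0.05), and none of the 8 genes tested here did. Mpo and Csf1r were too low to be tested. The 8 had a median log2 difference of 0.13, against 0.01 over all genes, and each had an adjusted p of 0.99998. With the first unnumbered library placed with WT 1 and the second with WT 2, a block called 0.0354% of all genes and again 0 of the 8. With these 2 libraries exchanged, the block called 0 genes. DESeq2 called 1 gene without a block (0.00886%) and edgeR 0, none of them among the 8.

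Mpeg1 stood at 1442, 1504 and 1643 normalised reads in LPS WT 1, 2 and 3, at 1870 in T58A 3, and at 1845 and 1816 in the first and second unnumbered T58A libraries. Every T58A library lay above every WT library, the opposite of the IL7 cultures. The means were 1530 ± 103 and 1844 ± 26.6 (SD, n = 3), a log2 difference of 0.27 ± 0.14, with an adjusted p of 0.148 in limma with the block. With the unnumbered libraries exchanged in the block, the adjusted p was 0.999975. Cd68 was the other of the 8 without overlap, where 3.1% of all tested genes lay above WT in this way. It stood at 155, 131 and 163 in WT 1, 2 and 3, at 178 in T58A 3 and at 191 and 168 in the unnumbered T58A libraries (0.26 ± 0.18, adjusted p = 0.330 with the block). None lay below WT without overlap, against 3.3% of all genes.

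Ctss stood at 5150, 3506 and 4209 normalised reads in LPS WT 1, 2 and 3, at 3416 in T58A 3 and at 4208 and 3089 in the unnumbered T58A libraries. The groups overlapped (log2 difference -0.26 ± 0.20, adjusted p = 0.173 with the block). Itgam stood at 565, 419 and 716 in WT 1, 2 and 3, at 590 in T58A 3 and at 401 and 338 in the unnumbered libraries, with an adjusted p of 0.118 with the block (-0.36 ± 0.25). In the authors' deposited table the adjusted p of Ctss, Itgam and Mpeg1 in the LPS cultures was 0.127, 0.159 and 0.162. Wfdc17 stood at 135, 69.2 and 113 in WT 1, 2 and 3, at 128 in T58A 3 and at 103 and 80.3 in the unnumbered libraries, and its group means of 106 ± 33.4 and 104 ± 23.9 (SD, n = 3) lay within the spread.

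The adaptors went separate ways in the LPS cultures. Tyrobp stood at 63.2, 98.5 and 34.4 normalised reads in WT 1, 2 and 3, at 37.2 in T58A 3 and at 102 and 123 in the unnumbered libraries. Pair 3 held both low libraries, and the groups overlapped (0.37 ± 0.49). Fcer1g stood at 43.96, 25.1 and 20.6 in WT 1, 2 and 3, at 12.7 in T58A 3 and at 25.2 and 11.5 in the unnumbered libraries (-0.83 ± 0.43, adjusted p = 0.195 with the block). Lyz2 stood at 9.62, 16.4 and 11.8 in WT 1, 2 and 3, at 24.4 in T58A 3 and at 7.20 and 18.6 in the unnumbered libraries, 6 to 26 reads a library. Mpo had 1 read in WT 3 and 1 in the first unnumbered library, and Csf1r stood at 0, 6.92 and 3.93 in WT 1, 2 and 3, at 1.96 in T58A 3 and at 0 and 2.15 in the unnumbered libraries.

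Tyrobp and Itgam ordered the 6 LPS libraries in exactly opposite ways, disagreeing in all 15 pairs of libraries. Itgam disagreed in 0 pairs with Xbp1, the transcription factor of antibody secretion, and in 3 with Igj. Tyrobp disagreed in 15 with Xbp1, in 2 with the macrophage gene Emr1 (F4/80) and in 1 with Ccr7 of the dendritic cell list. Ccr7 ran from 882 to 3932 normalised reads. Lgals3, of the same list as Emr1, was lowest in WT 2 and the second unnumbered library (67.4 and 63.1), the 2 libraries highest in Emr1. Xbp1 stood at 9955, 5514 and 13245 normalised reads in LPS WT 1, 2 and 3, at 10336 in T58A 3, and at 5432 and 3388 in the unnumbered libraries. Emr1 stood at 94.8, 106 and 35.4 in WT 1, 2 and 3, at 32.3 in T58A 3, and at 97.2 and 166 in the unnumbered libraries, so the 3 libraries lowest in Xbp1 were the 3 highest in Emr1 and in Tyrobp. These are descriptions over 6 libraries, and Xbp1, Emr1, Ccr7 and Lgals3 were picked after their values were seen. The part of plasmablast transcripts in the level of Itgam was not tested, nor was that of macrophage transcripts in the level of Tyrobp.

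The summed level of the 10 genes in the LPS cultures was 1077, 863 and 1004 RPM in WT 1, 2 and 3, 914 in T58A 3, and 1009.5 and 844 in the unnumbered T58A libraries. The groups overlapped, with means of 982 ± 109 and 923 ± 83.0 (SD, n = 3) and a log2 ratio of -0.09. Ctss supplied 54.6% to 68.1% of these reads. Without Ctss the ratio was 0.14, and the sum of Lyz2, Mpo and Csf1r was 1.23 to 3.86 RPM. In none of the other lists did a gene pass in the LPS cultures, in limma with or without the block, and the summed B cell level was 9915 to 10301 in WT and 9577 to 10746 in T58A.

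The genotype difference itself was compared between the cultures over all 12 libraries. Without a block no gene of 12184 passed (0%), and none of the 10 did. A block was then added for the pair of each culture. Pairs 1 and 2 of the LPS cultures were set from correlations in these same values, so the adjusted p-values with this block are descriptions. The interaction was not fitted with the unnumbered libraries exchanged. With this block 3.06% of all tested genes passed. In the direction of a more negative difference in IL7 were 2.42% of all tested genes, among them 2 of the 10. Mpeg1 had a log2 difference of -1.14 in the IL7 and 0.27 in the LPS cultures, which differ by -1.41 ± 0.27 (adjusted p = 0.995 without the block and 0.00610 with it). Wfdc17 had -2.16 and 0.00, which differ by -2.16 ± 0.48 (adjusted p = 0.995 and 0.0164), or by -1.29 with a pseudocount of 5. Ctss, lower in both, had -0.62 and -0.26, and these differ by -0.36 ± 0.27 (adjusted p = 0.995 without the block).

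Genes whose order of libraries was most like the sum of the normalised reads of the 10, in place of the RPM sums above, were sought among all tested genes. In the LPS cultures this sum put WT 3 (6916) above the first unnumbered library (6883), whereas in RPM WT 3 lay below it (1004 against 1009.5). In the IL7 cultures 20 of 11594 genes (0.173%) ordered all 15 pairs of libraries as the sum did, and the 5 of them with the widest range were Cd46, Grhl1, Oas1a, Rgs18 and Shf. Rgs18, a regulator of G protein signalling, stood at 95.6, 82.4 and 95.8 normalised reads in WT 1, 2 and 3 and at 60.2, 75.4 and 58.02 in T58A 1, 2 and 3. In the LPS cultures 104 of 11283 genes (0.922%) did so, led by Cds1, Itgax, Tnfsf18, Prdx4 and Ly6a. Itgax, which encodes the integrin alpha chain CD11c, stood at 37.1, 9.51 and 35.4 in WT 1, 2 and 3, at 11.7 in T58A 3 and at 14.4 and 7.17 in the unnumbered libraries. Cds1 ran from 4.30 to 24.7 normalised reads, and Ly6a (Sca-1) from 3746 to 11101, both highest in LPS WT 1.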

How the data were processed

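RNA was sequenced from 12 libraries. Per the submitters' processing notes, reads were handled with bcl2fastq 1.8.4, TopHat2 2.1.0 and HTSeq 0.6.1 on mm10, and with DESeq2, whose version is not given in the sources used here. Libraries were made from total RNA with the TruSeq RNA v2 kit, per the labels. For each culture the authors deposited a signal for every gene in every library. Its steps are those of counts scaled by 1 size factor a library. The same deposited tables hold their log2 fold change, p-value and adjusted p. Whole reads were recovered for 100% of the values (within 0.001), and the deposited normalised signal was tested, the design having foreseen this case.

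The named genes and lists were chosen with earlier results of these data known. Named beside the 10 genes were, from each list, the 2 most abundant genes and up to 4 called ones, and the 5 most alike in order. The exceptions are said in the text. Not every gene so taken is reported here. Genes were kept by filterByExpr of edgeR 4.0.16 (minimum count 10, total 15). Genotype was tested within each culture with limma 3.58.1 (trend, on log2 of normalised reads plus 1, all 6 libraries) in R 4.3.3, with Benjamini-Hochberg adjustment over all genes at 0.05. The difference between cultures was an interaction over 12 libraries. An adjusted p with the block comes from the same limma fit with the pair as a term.

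The titles number the pairs. In the IL7 table same-numbered libraries deviated together (correlations 0.41, 0.15 and 0.40, against -0.36 to -0.05 for others), so the numbers were taken to pair them. In the LPS table only pair 3 carries a number in both genotypes, and the first unnumbered library was placed with WT 1 (0.34) and the second with WT 2 (0.66) from these correlations, as an added alternative. No label names the animal of a library, so p-values measure the spread between libraries, which may be technical in part. RPKM used GENCODE M21 exon lengths on GRCm38. The tests were tested on simulated data, and exact intervals are at the 95% level. Alternatives were edgeR, DESeq2 1.42.0, limma-voom, TMM, total reads, pseudocounts of 0.5 and 5, other filters and leaving out each library. Figures were drawn with matplotlib 3.10.9.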

Additional observations from a re-analysis of the deposited data

Results flagged for a closer look

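The T58A difference of Mpeg1 was negative in the IL7 cultures and positive in the LPS cultures, with every T58A library below every WT library in the first and above in the second. The difference between the 2 was -1.41 on the log2 scale. The interaction in limma gave an adjusted p of 0.995 without a block for the pair and 0.00610 with it. That block used LPS pairs set from correlations in these same values, and no interaction was fitted with the unnumbered libraries exchanged. Without IL7 T58A 2 and without a block it gave -1.67 with an adjusted p of 0.0229. Leaving out any other library gave Mpeg1 an adjusted p of 0.432 to 0.999974.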

How the results depend on the processing

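Genes called in the IL7 cultures numbered 0 without the pair and 1476 with the pair as a block, 1424 with the block in edgeR, 1053 with the block in DESeq2, 310 in DESeq2 without it, 775 with the block without pair 2 and 840 without pair 3. The 10 genes gave 0, 3, 3, 2, 2, 6 and 2 calls in that order. Leaving out 1 library without the block gave 0 to 2 calls, 0 of them among the 10. In the LPS cultures limma called 0, the block 4, the block in DESeq2 228, and DESeq2 without it or with the unnumbered libraries exchanged 1, while leaving out 1 library gave 0 to 6. None of these was one of the 10. For the difference between cultures the block called 373 genes and 2 of the 10, and leaving out 1 library called 0 to 3 and 0 to 1. The cause of these shifts was not tested.

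The summed level had a log2 ratio of -0.82 to -0.55 in the IL7 and -0.17 to -0.017 in the LPS cultures when 1 library was left out, and 0.14 in LPS without Ctss. In the IL7 cultures Lyz2 turned to 0.40 with the block without pair 3 and ran from -0.77 to 0.23 over left-out libraries, and Csf1r from -0.80 to 0.16. In the LPS cultures Lyz2 ran from -0.071 to 0.75, Tyrobp from -0.021 to 0.89 and Wfdc17 from -0.27 to 0.20, and Wfdc17 was -0.019 in edgeR and in DESeq2. The difference between cultures ran from -0.35 to 1.14 for Csf1r, -0.39 to 0.17 for Itgam and -0.31 to 0.42 for Fcer1g. Of the values of single genes under these alternatives, 472 kept their direction and side of the threshold, 21 passed it newly and 22 reversed. The block by number as first planned for the LPS table was not run, as 2 of its columns carry no number of their own. Genes under about 3 reads a library, such as Mpo and Csf1r in LPS and Wfdc17 in IL7 T58A, are limited by depth.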
